A study of Mus musculus with 6 samples.

Results

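DEAD box and DEAH box proteins are RNA helicases that use ATP to unwind or remodel RNA and RNA-protein complexes, and they are named after the amino acids of a conserved motif. Different members serve the spliceosome, the assembly of ribosomes in the nucleolus, the export of mRNA through the nuclear pore, its translation and its decay. Upf1, a helicase of another superfamily that is central to nonsense-mediated mRNA decay, was described with them. The genes were chosen by symbol (Ddx or Dhx followed by a number, or Upf1), with earlier results of these data known. Ddx3x and Ddx3y were left out by the same rule. This gave 51 of the 18193 genes on the arrays, 34 Ddx genes, 16 Dhx genes and Upf1, read by 111 of the 34945 probe sets that name 1 gene. A probe set is a group of short oligonucleotides that together report a transcript, although some probe sets also match other sequences.

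Gene expression was measured in the adult mouse retina, the neural tissue of the eye that turns light into nerve signals. Retinas came from 3 Trim9 KO mice and 3 WT littermates, with 1 array for each sample. The Trim9 KO allele lacks exon 1, which was removed by crossing to mice that express Cre from the CMV promoter, a promoter active in most tissues, so that the deletion is not confined to the retina. The labels give no treatment and no exact age, and the mention of embryos in 1 protocol was not followed because the tissue is given as adult retina. Values are deposited intensities, taken as log2(intensity + 16), and a log2 fold change is the Trim9 KO mean minus the WT mean on that scale, which understates the change of dim genes. Where a gene had several probe sets, the brightest of them, by its mean log2 value on the 6 arrays, was used.

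Trim9 itself had intensities of 1498, 497 and 367 on the Trim9 KO arrays, against 4226, 1767 and 1667 on the WT arrays, a log2 fold change of -1.81 (SE 0.99, exact permutation p = 0.1, two-sided, the smallest value that 3 against 3 arrays allow). Its 3 other probe sets gave -2.48, -0.77 and -0.58, and on the last 2 of these the groups overlapped. Whether its probe sets lie in the deleted exon was not examined. The arrays also differed within each genotype. The median intensity was 252 to 807 on the Trim9 KO arrays and 218 to 675 on the WT arrays. Trim9 KO replicate 1 stood apart from the rest, with Pearson's r of 0.466 to 0.516 against the others across probe sets, whereas the other arrays gave 0.655 to 0.887 among themselves. Signal at the 3' end over signal at the 5' end of control transcripts, a ratio that is larger in degraded RNA, ran from 2.83 to 94.5 for Actb and from 134 to 163 for Gapdh in Trim9 KO, against 3.43 to 20.2 and 0.905 to 310 in WT. Rod markers (6 of 8 measured, all above the median probe set) summed to 393953 to 623416 in Trim9 KO and 632224 to 866544 in WT, as intensities. Every Trim9 KO sum was thus below every WT sum. The median percentile of the rod markers overlapped, with 99.6, 98.6 and 97.7 on Trim9 KO replicates 1, 2 and 3 and 98.1, 99.8 and 99.96 on those of WT. Markers of the retinal pigment epithelium (6 of 6 measured, 4 above that median) summed to 373955 to 1358350 in Trim9 KO and 71067 to 477397 in WT. The highest sum was on Trim9 KO replicate 1, but a sum follows its brightest markers. For replicates 1, 2 and 3, the median percentile of these markers was 57.6, 63.5 and 83.5 in Trim9 KO and 70.9, 49.8 and 63.5 in WT. Of the lens and microglia markers, 0 of 5 and 0 of 5 lay above the median probe set. The part of these differences in the helicase values was not tested, and in whole retina fewer cells of a type cannot be told apart from less RNA per cell.

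Most of the helicases that act on spliceosomes and all of those that act in mRNA decay had lower means in Trim9 KO retinas, whereas the helicases of ribosome biogenesis were evenly divided. Over the family, the mean was lower in Trim9 KO for 29 of 51 helicases, against 44.8% of all genes, and higher for 22. The median log2 fold change was -0.36 for the helicases and 0.14 for all genes. Means at least 1.5-fold lower were found for 21 helicases (24.0% of all genes) and means at least 1.5-fold higher for 10 (33.2% of all genes). Only 3 helicases, Dhx38, Upf1 and Ddx20, had all Trim9 KO arrays below all WT arrays (2.89% of all genes), and only 1, Ddx39a, had them all above (5.35% of all genes). By limma with Benjamini-Hochberg adjustment over all probe sets, 0 of 51 helicases passed (0.0% of all genes), each with an adjusted p of 0.999. Since 0 of all 45037 probe sets passed, this count does not set the helicases apart from other genes. At an unadjusted p under 0.05 in limma there were 2, Dhx38 and Upf1, both lower (0.737% of all genes), and 0 higher (1.82%).

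By the brightest probe sets, the family median rested on the dimmer members. Of the 40 helicases with a mean above the median of all probe sets, 19 were lower in Trim9 KO (50.0% of such genes) and the median log2 fold change was 0.10. Among these, 2 had all Trim9 KO arrays below all WT arrays (3.42% of such genes) and 1 had them all above (4.5%). Of the 11 dimmer helicases, 10 had a lower mean, against 34.6% of genes that dim, with a median of -0.88. The family median also came to -0.03 without Trim9 KO replicate 1 and to 0.01 without WT replicate 2. Limma's array weights, which count unusual arrays less, moved it to -0.00096. The median of all genes was 0.098, 0.25 and 0.24 under these 3 settings, so the helicases stayed below it. Means were lower for 19 of 34 Ddx genes (median -0.28) and 9 of 16 Dhx genes (median -0.25). Some bright members were read by probe sets with names ending in _x_at, which marks probes that also match other sequences. Without _x_at probe sets, a setting chosen after the values were seen, 35 of 51 helicases had a lower mean and the family median was -0.61. The split by brightness was not examined under that setting.

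**Figure D1:**
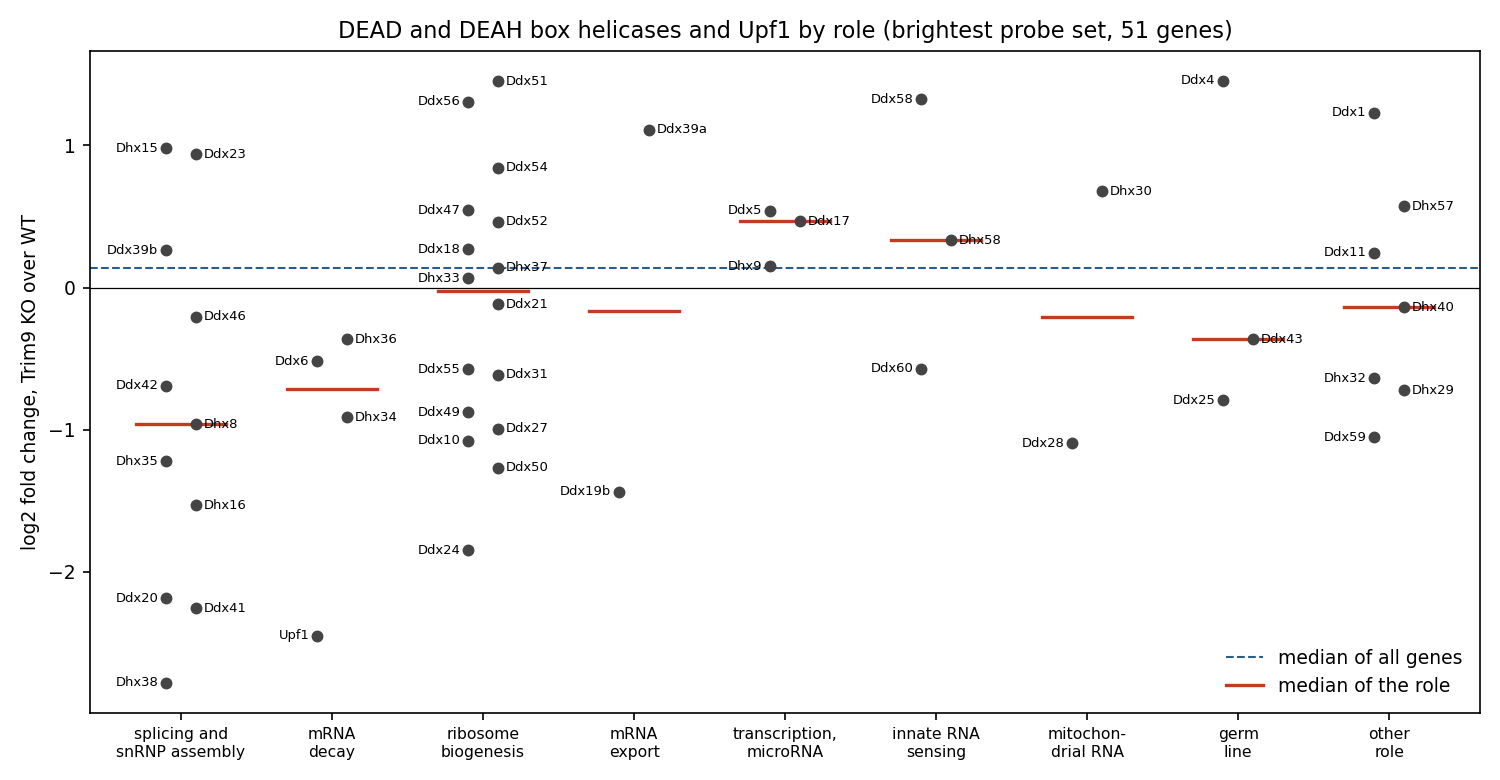
Log2 fold change, Trim9 KO over WT, of each of the 51 helicases by its brightest probe set, in columns by role. Red bars mark the median of each role and the dashed line the median of all genes (0.14). The splicing column centres on -0.96 and the decay column on -0.72, while the ribosome biogenesis column spans 0 from -1.85 to 1.45.

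The start regions of 3 of the 4 helicases with the lowest log2 fold changes are shown because these genes carry the low end of the family. Each is 300 bases around 1 annotated start of the gene (RefSeq, GRCm38.p6, minus strand, written 5′ to 3′), and the outer end of the annotated gene lies within each, so that part of the stretch is inside the gene. Capitals mark matches, searched on both strands with overlapping matches run together, to the TATA box motif TATAAA, to the CCAAT box, to CCGGAAG, which includes the core that ETS transcription factors bind, and to GCATGCG, part of the element that NRF1 binds.
Upf1, chr8:70353230-70353529: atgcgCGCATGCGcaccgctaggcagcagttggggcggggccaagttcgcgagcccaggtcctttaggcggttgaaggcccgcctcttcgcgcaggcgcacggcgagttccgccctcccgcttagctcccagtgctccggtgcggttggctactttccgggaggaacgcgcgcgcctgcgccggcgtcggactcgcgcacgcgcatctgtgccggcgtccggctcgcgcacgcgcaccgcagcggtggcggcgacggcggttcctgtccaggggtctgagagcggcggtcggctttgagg
Ddx41, chr13:55536609-55536908: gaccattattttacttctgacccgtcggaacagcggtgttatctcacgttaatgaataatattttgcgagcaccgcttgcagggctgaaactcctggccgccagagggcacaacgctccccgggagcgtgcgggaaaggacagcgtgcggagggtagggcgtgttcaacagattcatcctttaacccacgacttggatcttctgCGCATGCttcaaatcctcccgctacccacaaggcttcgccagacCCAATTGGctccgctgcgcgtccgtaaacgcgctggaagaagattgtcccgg
Ddx20, chr3:105687522-105687821: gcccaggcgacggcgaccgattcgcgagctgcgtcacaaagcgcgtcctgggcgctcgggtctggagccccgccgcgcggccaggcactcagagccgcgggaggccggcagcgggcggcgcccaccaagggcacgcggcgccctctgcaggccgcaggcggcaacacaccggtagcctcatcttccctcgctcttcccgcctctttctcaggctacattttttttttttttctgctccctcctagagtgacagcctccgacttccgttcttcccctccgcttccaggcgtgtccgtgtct
The Upf1 stretch held 47 CpG dinucleotides and 2 overlapping GCATGCG matches, 1 on each strand. The Ddx41 stretch held 25 CpG, 1 GCATGCG match and 2 overlapping CCAAT matches, and the Ddx20 stretch 34 CpG and none of the 4 motifs. Entries were found for 45 of the 51 helicases, with 56 gene starts, and these held a median of 24 CpG, against 7 over all 32851 gene starts. CCGGAAG lay in 21 of the 56 helicase starts (37.5%, against 8.86% of all starts). GCATGCG lay in 12.5% (3.58% of all), the CCAAT box in 46.4% (37.4%) and the TATA box motif in 10.7% (13.6%). These matches describe the sequences alone.

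Of the 11 helicases of splicing and snRNP assembly, 8 were lower and 3 higher in Trim9 KO by their means. Their median log2 fold change was -0.96, and 0 of 11 passed limma after adjustment. The lowest was Dhx38 (chr8:109547999-109565861, GRCm38.p6), the counterpart of yeast Prp16, which remodels the spliceosome before the second step of splicing. Its intensities were 48.9, 44.9 and 35.4 in Trim9 KO, against 73.2, 2271 and 305 in WT. The Trim9 KO arrays lay close together and below every WT array, but WT replicate 1 was nearer to them than to the other WT arrays. The means were 5.88 ± 0.17 in Trim9 KO and 8.66 ± 2.36 in WT (log2, SD, n = 3 each). The log2 fold change was -2.78 (SE 1.20, exact permutation p = 0.1), or -1.53 without WT replicate 2. The name of this probe set ends in _s_at, which marks probes shared by transcripts of more than 1 gene, and the other Dhx38 probe set, also dim, had a log2 fold change of 1.38 (SE 1.11).

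Ddx41 (chr13:55530410-55536658), a helicase found in spliceosomes that also senses DNA in the cytoplasm, had intensities of 167, 88.1 and 27.4 in Trim9 KO, against 94.5, 1231 and 634 in WT. WT replicate 1 lay within the Trim9 KO range, so the groups overlapped (log2 fold change -2.25, SE 1.14, exact permutation p = 0.2). Ddx20 (chr3:105678270-105687788), also called Gemin3, is the helicase of the SMN complex, which loads Sm proteins onto spliceosomal RNAs, and its intensities were 46.8, 1586 and 2041 in Trim9 KO, against 3525, 2461 and 2196 in WT. Trim9 KO replicate 1 was far below the other arrays, and Trim9 KO replicate 3 came within reach of the lowest WT array. The log2 fold change was -2.18 (SE 1.32, exact permutation p = 0.1), and it was -0.57 without Trim9 KO replicate 1. Dhx16, the counterpart of yeast Prp2 that acts before the first step, had 55.2, 1021 and 864 in Trim9 KO, against 221, 2653 and 2450 in WT. In each genotype replicate 1 was the lowest, and the groups overlapped (log2 fold change -1.53, SE 1.35, exact permutation p = 0.5), with -0.28 without Trim9 KO replicate 1.

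The other splicing helicases had log2 fold changes from -1.22 to 0.98. Dhx15, the counterpart of yeast Prp43 that takes apart spent spliceosomes, had 50266, 96799 and 58194 in Trim9 KO, against 64048, 34191 and 16888 in WT. Its mean was higher in Trim9 KO (log2 fold change 0.98, SE 0.96, exact permutation p = 0.3), but WT replicate 1 lay among the Trim9 KO arrays. Lower means were also found for Dhx35, found in spliceosomes at -1.22, Dhx8, which releases spliced mRNA, at -0.96, Ddx42, which joins the U2 snRNP, at -0.69 and Ddx46, the counterpart of yeast Prp5, at -0.20. Higher means were found for Ddx23, the counterpart of yeast Prp28, at 0.94 and for Ddx39b, which acts in spliceosome assembly and export, at 0.26. All 6 had overlapping groups. The splicing median was -0.34 without Trim9 KO replicate 1, against 0.098 for all genes.

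All 4 helicases of mRNA decay had a lower mean in Trim9 KO, with a median log2 fold change of -0.72, and 0 of 4 passed limma after adjustment. Upf1 (chr8:70331493-70353423) had intensities of 183, 50.5 and 207 in Trim9 KO, against 237, 1493 and 1238 in WT. All Trim9 KO arrays were below all WT arrays, with WT replicate 1 only just above Trim9 KO replicate 3. The means were 7.16 ± 0.96 in Trim9 KO and 9.61 ± 1.42 in WT (log2, SD, n = 3 each). The log2 fold change was -2.45 (SE 1.07, exact permutation p = 0.1), and it ran from -3.26 to -1.89 as each array was left out. A single probe set reads this gene. Dhx34, which works with Upf1 in nonsense-mediated decay, had 189, 936 and 701 in Trim9 KO, against 740, 1262 and 946 in WT. The highest Trim9 KO array lay between the WT arrays (log2 fold change -0.91, SE 0.98), and the change was -0.24 without Trim9 KO replicate 1.

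By their brightest probe sets, the 2 other decay helicases showed no side that held across arrays. Ddx6, which promotes decapping and sits in processing bodies, had 3492, 5278 and 2009 in Trim9 KO, against 2516, 4265 and 10196 in WT. WT replicate 3 alone lay above the Trim9 KO range, and without it the log2 fold change of -0.52 (SE 0.98) became 0.02. The other Ddx6 probe sets gave -1.75, -1.42 and, where the name ends in _x_at, 2.18. Dhx36, which unfolds G-quadruplexes and takes part in the decay of AU-rich mRNAs, had 2007, 5966 and 10366 in Trim9 KO, against 9700, 5112 and 5366 in WT. The Trim9 KO arrays held both the lowest and the highest value, and the log2 fold change of -0.36 (SE 0.99) became 0.29 without Trim9 KO replicate 1. All 3 Dhx36 probe sets had a lower mean in Trim9 KO, the lowest at -1.72.

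**Figure D2:**
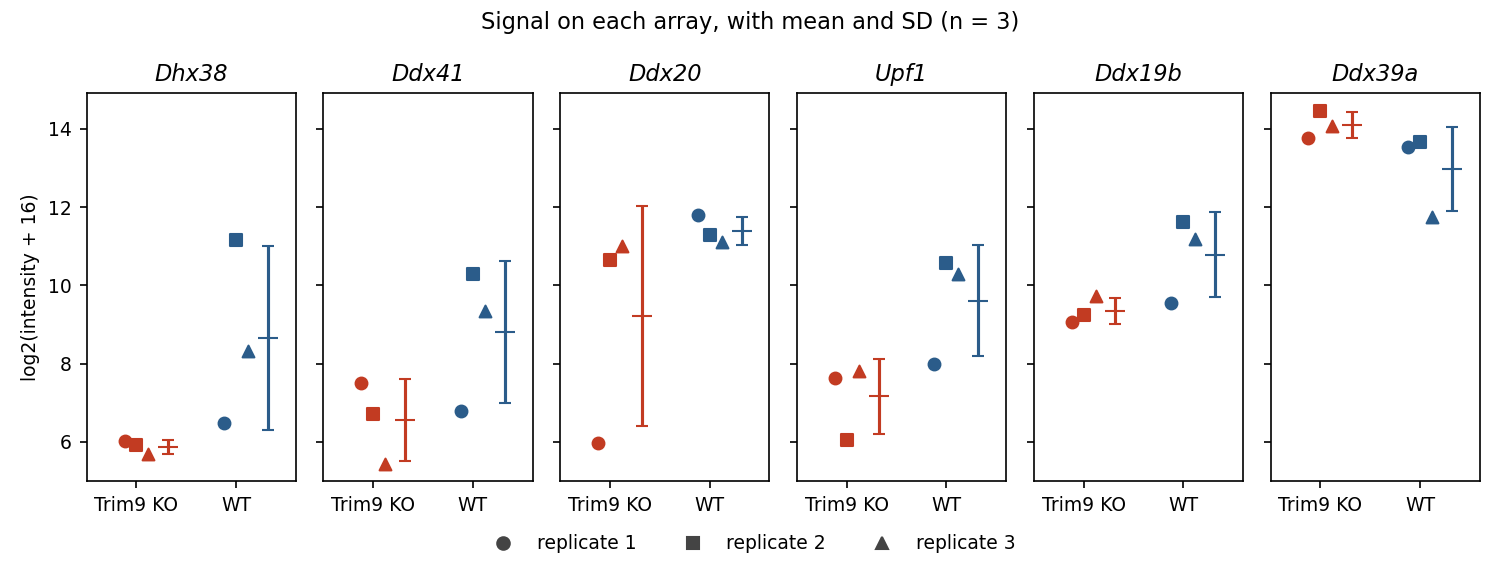
Signal of 6 helicases on each array, as log2(intensity + 16), with Trim9 KO (red) left of WT (blue). The shape of a point gives the replicate number and the bar the mean with its SD (n = 3). Dhx38, Ddx20 and Upf1 have all Trim9 KO arrays below all WT arrays, and Ddx39a has them all above, while in Ddx20 a single Trim9 KO array accounts for most of the gap.

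The 3 main roles were also set side by side for each array. On Trim9 KO replicate 1 the median deviation of the splicing helicases from each gene's own mean was -0.54 on the log2 scale, that of the decay helicases -1.12 and that of the ribosome biogenesis helicases -0.29, whereas all genes stood at 0.23. On Trim9 KO replicates 2 and 3 the splicing medians were 0.10 and -0.11, near those of all genes (0.21 and -0.05). On WT replicates 1, 2 and 3 they were -0.35, 0.42 and 0.81, against -0.15, 0.26 and -0.25 for all genes. WT replicate 3 thus had the highest splicing and decay medians (0.81 and 0.89) and Trim9 KO replicate 1 the lowest, while the remaining arrays of both genotypes overlapped. After quantile normalization, which gives all arrays the same distribution, the splicing medians were -0.60, 0.05 and 0.14 in Trim9 KO and 0.02, 0.51 and 0.69 in WT.

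**Figure D3:**
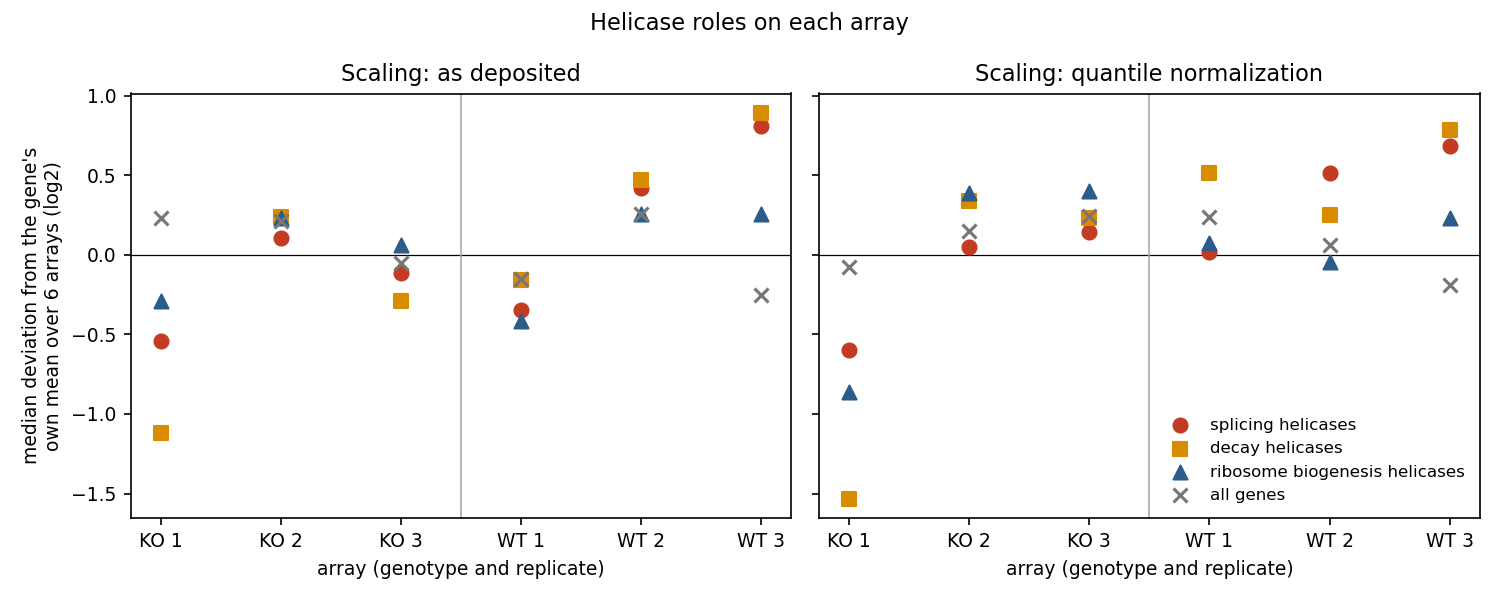
Median deviation (log2) of the genes of each role from their own mean over the 6 arrays, for values as deposited (left) and after quantile normalization (right), with Trim9 KO arrays left of WT arrays. All 3 helicase roles are lowest or near lowest on Trim9 KO replicate 1, where all genes are at 0.23 as deposited and -0.07 after quantile normalization.

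Helicases of ribosome biogenesis, which remodel precursor rRNA in the nucleolus, were divided, with 8 of 16 lower and 8 higher in Trim9 KO, a median log2 fold change of -0.03 and 0 of 16 past the adjusted threshold. In all 16 the groups overlapped on the brightest probe set. Ddx24, the counterpart of yeast Mak5, which serves the large subunit, had 139, 613 and 339 in Trim9 KO, against 40.4, 7686 and 3699 in WT. WT replicate 1 was the lowest of all arrays and the other WT arrays the highest, and the log2 fold change was -1.85 (SE 1.63, exact permutation p = 0.5). The other Ddx24 probe set gave 0.70. Ddx50, a nucleolar paralog of Ddx21, had 4651, 1171 and 2928 in Trim9 KO, against 2655, 9102 and 9323 in WT. WT replicates 2 and 3 lay above every Trim9 KO array (log2 fold change -1.27, SE 1.02). The other Ddx50 probe sets, both dimmer, gave 1.64 and -0.31. Ddx10, needed for the small subunit, had 149, 1452 and 2222 in Trim9 KO, against 3014, 1126 and 1452 in WT. Its log2 fold change of -1.08 (SE 1.16) became 0.08 without Trim9 KO replicate 1, and its other probe set gave -2.03.

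On the other side of 0, Ddx51, the counterpart of yeast Dbp6, which serves the large subunit, had 3007, 457 and 618 in Trim9 KO, against 309, 120 and 983 in WT. Trim9 KO replicate 1 stood highest and the other Trim9 KO arrays lay between the WT arrays (log2 fold change 1.45, SE 1.13). Ddx56 had a log2 fold change of 1.31 (SE 1.58), Ddx54 of 0.84, Ddx47 of 0.54 and Ddx52 of 0.46. Ddx18, Dhx37 and Dhx33 had means 0.27, 0.14 and 0.06 higher. Lower means came from Ddx27 at -0.99, Ddx49 at -0.88, Ddx31 at -0.61, Ddx55 at -0.57 and Ddx21, which also links RNA polymerase activity with rRNA processing, at -0.12. The median of this role was -0.35 with equal array medians and 0.18 with array weights, against -0.19 and 0.24 for all genes. With a filter on dim probe sets it was 0.14, against -0.00053 for all genes kept. Neither its sign nor its side of the median of all genes was settled.

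The pair of export helicases went opposite ways. Ddx19b (chr8:111003186-111031751), which strips proteins from mRNA at the nuclear pore, had 519, 592 and 831 in Trim9 KO, against 736, 3125 and 2292 in WT. WT replicate 1 lay among the Trim9 KO arrays and the other WT arrays above them (log2 fold change -1.44, SE 0.97, exact permutation p = 0.2), and all 3 of its probe sets had a lower mean. Ddx39a (chr8:83715177-83726904), a paralog of Ddx39b that also serves export, had 13954, 22375 and 17068 in Trim9 KO, against 11856, 12979 and 3421 in WT. All Trim9 KO arrays were above all WT arrays, but Trim9 KO replicate 1 and WT replicate 2 were close (log2 fold change 1.11, SE 0.97, exact permutation p = 0.1), and the change was 0.49 without WT replicate 3. Of its 5 probe sets, 4 were higher in Trim9 KO by their means and 1 was lower (-0.27). The higher ones other than the brightest all have names ending in _x_at.

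The 3 helicases of transcription and microRNA processing had slightly higher means by their brightest probe set, and none had groups that stood apart. Ddx5 and Ddx17, paralogs that join the Drosha complex and act as transcriptional coregulators, had similar array patterns. Ddx5 had 77562, 167953 and 99621 in Trim9 KO, against 172967, 77469 and 31553 in WT (log2 fold change 0.54, SE 1.00). Ddx17 had 86538, 214409 and 135756 in Trim9 KO, against 255422, 82461 and 45306 in WT (log2 fold change 0.47, SE 1.01). In both genes Trim9 KO replicate 2 and WT replicate 1 were the brightest arrays and WT replicate 3 the dimmest, and without WT replicate 3 the changes became -0.09 for each. Dhx9, also called RNA helicase A, had 11959, 18744 and 17068 in Trim9 KO, against 17983, 16541 and 9399 in WT. Its log2 fold change of 0.15 (SE 0.91) was smaller than the spread of either group.

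The probe set chosen decided the direction for Ddx5 and Ddx17. Of the 6 Ddx5 probe sets, the 2 brightest have names ending in _x_at, which marks probes that also match other sequences, and gave 0.54 and 0.52. The next 2, with names ending in _a_at, gave -1.45 (SE 0.95) and -1.85 (SE 0.98). The first of these had 7840, 5556 and 19858 in Trim9 KO, against 21168, 25085 and 33345 in WT, and the other 3093, 2753 and 4316 in Trim9 KO, against 5496, 11661 and 26915 in WT. On both, all Trim9 KO arrays were below all WT arrays. The 2 dimmest gave -0.21 and 0.88. For Ddx17, the brightest probe set other than the _x_at one gave -1.04 (SE 0.92).

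**Figure D4:**
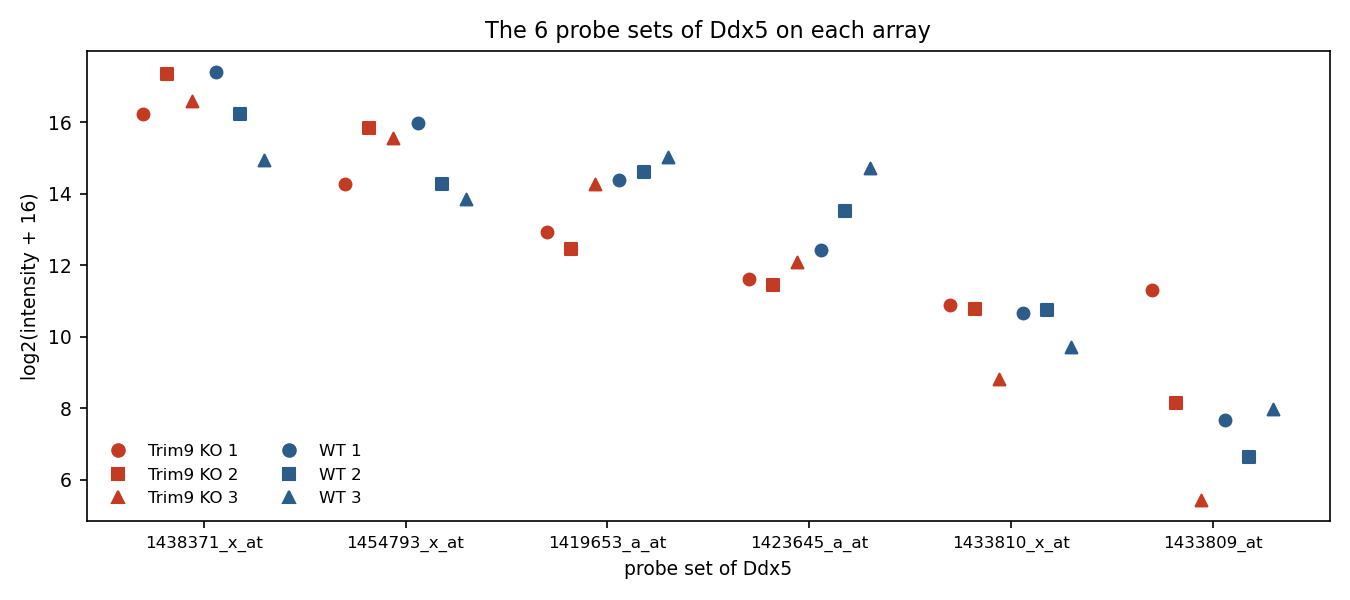
Signal of the 6 Ddx5 probe sets on each array, as log2(intensity + 16), ordered from the brightest on the left, with Trim9 KO (red) left of WT (blue) and the replicate as the shape. On the 2 _a_at probe sets all Trim9 KO arrays lie below all WT arrays, and on the 2 brightest, both _x_at, the groups overlap.

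Disagreement between probe sets of 1 gene ran through the family. Of the 33 helicases with several probe sets, 11 had all of them on the same side of 0 (6 lower, 5 higher) and 22 had them on both sides. Over all 111 probe sets, 59 were lower and 52 higher in Trim9 KO by their means (median log2 fold change -0.09). All Trim9 KO arrays were below all WT arrays on 6 of the 111 probe sets (3.06% of all probe sets that name 1 gene) and above them on 1 (4.92%). The 6 are those of Dhx38, Upf1 and Ddx20 already given, the _a_at pair of Ddx5 and a dimmer probe set of Ddx18, a nucleolar helicase of the large subunit, with 131, 78.3 and 332 in Trim9 KO, against 583, 764 and 2660 in WT. This Ddx18 probe set had a log2 fold change of -2.67 (SE 1.03, exact permutation p = 0.1), whereas the 2 others of the gene gave 0.27 and 0.08.

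Directions differed by the ending of the probe set name. Of the 17 helicase probe sets ending in _x_at, 3 had a lower mean in Trim9 KO, with a median log2 fold change of 0.68, and of the other 94, 56 had a lower mean, with a median of -0.29. Over all probe sets that name 1 gene, the share with a lower mean was 27.7% of the 2038 ending in _x_at and 47.1% of the others. Of the 17, 10 were brightest on Trim9 KO replicate 2 or WT replicate 1, against 16 of the other 94. Over all probe sets that name 1 gene these shares were 39.2% for names ending in _x_at and 21.3% for the others. For 7 helicases the brightest probe set was an _x_at one, and the brightest other probe set of the same gene was on the other side of 0 for all but Dhx32. Ddx39b gave -2.02 in place of 0.26, Dhx30 -1.99 in place of 0.68, Ddx1 -1.0 in place of 1.23 and Ddx54 -0.07 in place of 0.84. With _x_at probe sets left out, a setting chosen after these values were seen, 35 of 51 helicases had a lower mean and the family median was -0.61, against 0.08 for all genes, while 0 passed the adjusted threshold. The part of shared probes in these values was not tested.

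**Figure D5:**
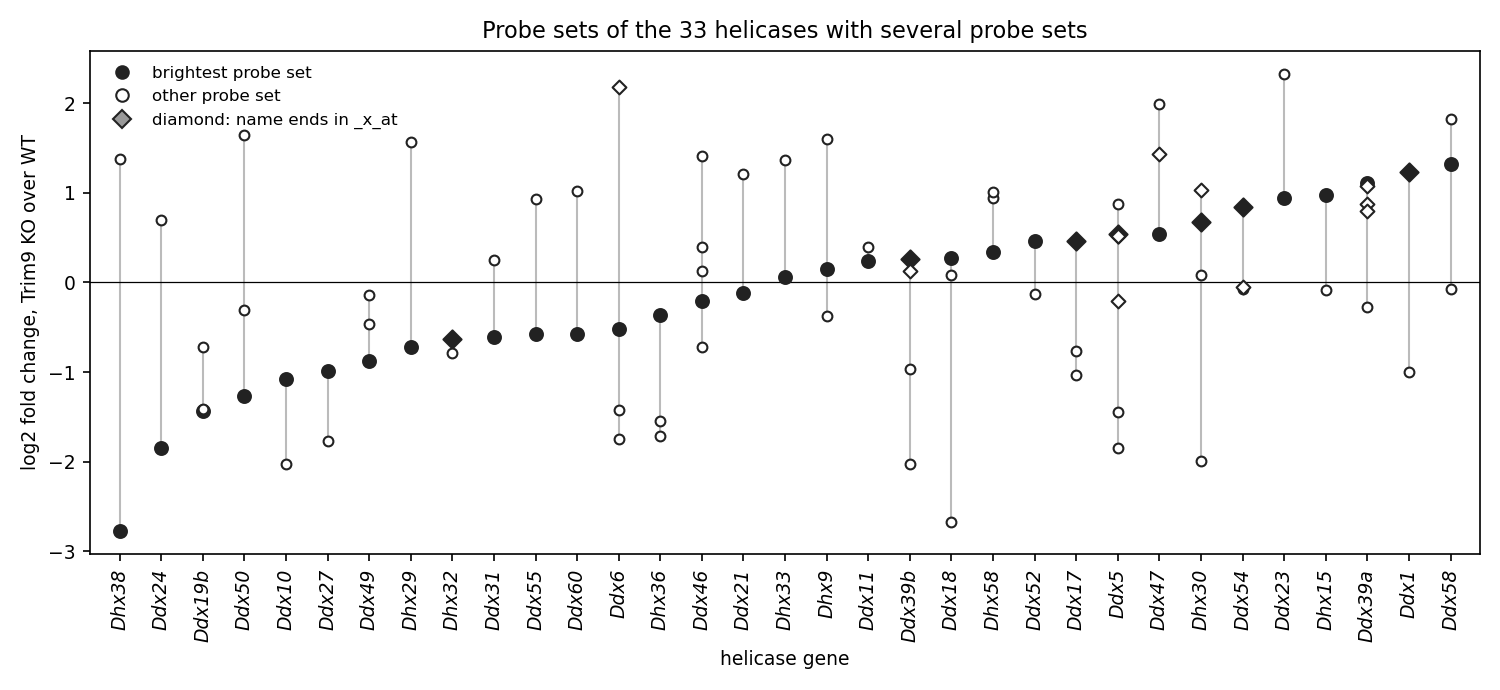
Log2 fold change, Trim9 KO over WT, of every probe set of the 33 helicases that have several, 1 gene per column, ordered by the brightest probe set. Filled points mark the brightest probe set of a gene, open points its other ones and diamonds names that end in _x_at. In 22 of the 33 genes the points lie on both sides of 0.

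In the helicases with other roles the arrays of the 2 genotypes overlapped. Among sensors of foreign RNA, Ddx58, which encodes RIG-I, had a log2 fold change of 1.32 (SE 0.97), Dhx58, which encodes LGP2, of 0.33 and Ddx60 of -0.57. Ddx58 had 1661, 2056 and 996 in Trim9 KO, against 294, 1188 and 584 in WT, and WT replicate 2 alone lay within the Trim9 KO range. Of the mitochondrial members, Ddx28, which helps build the mitochondrial ribosome, was at -1.10 and Dhx30, found in mitochondrial RNA granules, at 0.68. Of the members best known from germ cells, Ddx4, the counterpart of fly vasa, was at 1.45 (SE 1.03), Ddx25 at -0.79 and Ddx43 at -0.36. The remaining members ran from -1.05 for Ddx59 to 1.23 for Ddx1, which belongs to the tRNA ligase complex, with Dhx29, a translation initiation factor, at -0.72, Dhx32 at -0.64, Dhx40 at -0.14, Ddx11, a helicase of sister chromatid cohesion, at 0.24 and Dhx57 at 0.57.

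The proteins that work with these helicases were read from lists of their own, by the brightest probe set alone, and 0 of their genes passed limma after adjustment. Of 37 measured spliceosome proteins, 18 were lower and 19 higher in Trim9 KO by their means, and the median log2 fold change was 0.01, against -0.96 for the splicing helicases. All Trim9 KO arrays were below all WT arrays for 3 of the 37 (2.89% of all genes) and above them for 2 (5.35% of all genes). The 3 with the largest statistics were all lower. Bcas2, a core member of the complex that activates the spliceosome, had 105, 926 and 1375 in Trim9 KO, against 1641, 8861 and 3965 in WT (log2 fold change -2.84, SE 1.18). Sf3a3, a subunit of the U2 snRNP, had 130, 725 and 1800 in Trim9 KO, against 6335, 2082 and 3084 in WT (log2 fold change -2.57, SE 1.13). In both genes Trim9 KO replicate 1 was the lowest array. The name of the Bcas2 probe set ends in _s_at, like that of Dhx38. Cwc22, which places the exon junction complex, had a log2 fold change of -2.37 (SE 1.06). All 6 measured genes of the SMN complex other than Ddx20 had a higher mean in Trim9 KO (median 0.56), with overlapping groups, among them Gemin8 at 1.00 (SE 0.97), Smn1 at 0.88 and Strap at 0.67.

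Of 41 genes for other proteins of ribosome biogenesis, 28 were lower and 13 higher in Trim9 KO by their means, and the median log2 fold change was -0.50, against -0.03 for the 16 helicases, and all Trim9 KO arrays were below all WT arrays for 4 of the 41 (2.89% of all genes) and above them for 1 (5.35%). Nop56, a core protein of the snoRNPs that guide rRNA methylation, had 58.4, 1335 and 2368 in Trim9 KO, against 3561, 5608 and 4086 in WT. Trim9 KO replicate 1 was again far below the rest, and the log2 fold change of -2.81 (SE 1.29) was -1.28 without it. The name of the Nop56 probe set also ends in _s_at. Wdr36 and Pno1, both of small subunit assembly, had log2 fold changes of -2.02 (SE 1.03) and -1.81 (SE 1.04). Of 36 measured decay proteins, 16 were lower and 20 higher (median 0.07), and all Trim9 KO arrays were below all WT arrays for 3 of them (2.89% of all genes) and above for 1 (5.35%). Exosc10, a nuclease of the nuclear exosome, had 191, 161 and 142 in Trim9 KO, against 549, 1183 and 1693 in WT. The groups stood well apart, with a log2 fold change of -2.55 (SE 0.93, exact permutation p = 0.1) that ran from -3.0 to -2.20 as each array was left out. Exosc2, a subunit of the exosome, was at 1.90 (SE 1.13). Pan3, a subunit of a deadenylase, had 12351, 7950 and 5734 in Trim9 KO, against 2804, 3762 and 1086 in WT. Its groups stood apart the other way, with a log2 fold change of 1.86 (SE 0.96, exact permutation p = 0.1) that ran from 1.34 to 2.23 as each array was left out, and the name of this probe set ends in _x_at. Of 15 measured RNA helicases outside the DEAD and DEAH families, 9 had a lower mean (median -0.35), among them Znfx1 at -2.12 (SE 1.22) and Ighmbp2 at -1.18, while Ascc3 was at 1.24.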

How the data were processed

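Retinal RNA of 3 Trim9 KO mice and 3 WT littermates was hybridized by the authors, after amplification and biotin labelling, to Affymetrix mouse arrays, 1 per sample. The deposited values are linear intensities with the same trimmed mean on every array (2% left out at each end). The submitters' processing notes name MAS5 with no version, whereas the methods give RMA, which returns log2 values, and the linear scale and unequal array medians (218 to 807) are not those of RMA. Scanner files were not used here. No array column lacked a sample. The number of arrays limits the precision.

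From these, log2(intensity + 16) was computed for 45037 probe sets (64 controls of 45101 left out), and Trim9 KO was compared with WT by limma 3.58.1 (lmFit, eBayes) in R 4.3.3, with Benjamini-Hochberg adjustment over all of them and a threshold of 0.05. The exact permutation tests were two-sided. Genes were named from the platform annotation, updated by gene number (99.4% of the probe sets that name 1 gene matched, and all 111 of the helicases), and 932 probe sets with several gene names and 9160 with none were left out. Values on each array were given for the members with the largest limma statistics in each main role (up to 4), all decay helicases, the 3 with the highest mean and those whose groups did not overlap, and the partner lists gave up to 3 genes each. The Ddx58 values and the Ddx18 probe set were added after they were seen. Members and lists were chosen with earlier results of these data known, so no test was made over a list. Promoters and gene positions came from RefSeq (GRCm38.p6). The fit was tested on simulated data, where large planted changes were not called at the spread of these arrays and were called at a smaller spread, so an absent call says little about whether a gene changed. Alternatives were quantile normalization, equal array medians, pseudocounts of 1 and 64, a filter on dim probe sets, the replicate number as a block, limma's trend with a robust prior, array weights, averaging the probe sets of each gene and each array left out, and, added later, no _x_at probe sets. Python 3.11.15, pandas 2.3.3 and matplotlib 3.10.9 were used.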

Additional observations from a re-analysis of the deposited data

How the results depend on the processing

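No helicase passed the adjusted threshold under any alternative run. In the main fit 0 of all 45037 probe sets passed, so the absence of helicase calls says nothing about stability. The count at an unadjusted p under 0.05 (2) was 0 to 4 as each array was left out and 6 with array weights. The shares of all genes at that p were not computed under the alternatives, so these counts do not set the helicases apart from other genes. Over all probe sets the median log2 fold change was 0.18 as deposited, 0.015 after quantile normalization and -0.14 with equal array medians, and helicase changes are to be read relative to it. The count of helicases with a lower mean (29) was 19 of 40 with the filter on dim probe sets and 25 to 34 as each array was left out. The count with all Trim9 KO arrays below all WT arrays (3) was 5 with equal array medians and 3 to 13 as each array was left out, with 13 without WT replicate 1. The count above (1) was 2 after quantile normalization and 2 to 7 as each array was left out. Leaving out an array makes overlap less likely by construction. The shares of all genes were not computed under these settings, so these counts do not set the helicases apart from other genes. The family median (-0.36) was -0.68 with equal array medians, 0.10 with the filter, -0.00096 with array weights and -0.61 without _x_at probe sets. The median of all genes was -0.19, -0.00053, 0.24 and 0.085 under the same settings. As each array was left out, the family median was -0.37 to 0.015, against 0.036 to 0.25 for all genes. The same ranges were -1.01 to -0.34 for splicing, -0.26 to 0.076 for ribosome biogenesis, -1.10 to -0.40 for decay helicases and -2.40 to -1.38 for Trim9.

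Of the 18 helicases given on each array, 14 kept their sign under every alternative that used all arrays and 12 whichever array was left out. The sign changed for Ddx17 (-0.45) and Ddx5 (-0.26) with the mean of the probe sets, for Ddx17 (-1.04) and Ddx5 (-1.45) without _x_at probe sets, for Ddx50 (0.023) with the mean of the probe sets and for Dhx9 (-0.17) with equal array medians. As each array was left out, the log2 fold change was -1.81 to 0.077 for Ddx10, -0.093 to 1.15 for Ddx17, -0.086 to 1.14 for Ddx5, -0.98 to 0.025 for Ddx6, -0.89 to 0.29 for Dhx36 and -0.14 to 0.34 for Dhx9. The cause of these changes was not tested. Same-numbered samples did not deviate together (r across probe sets -0.23, -0.08 and 0.03 for replicates 1, 2 and 3), so the replicate numbers were not taken to pair the samples; with the replicate block the family median stayed -0.36, 29 helicases had a lower mean, 0 passed the adjusted threshold and 1 had an unadjusted p under 0.05.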
